A study of Homo sapiens with 8 samples.

Results

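The HOX cluster genes are the homeobox genes named HOXA, HOXB, HOXC or HOXD followed by a position number. They were taken from the gene names of the count table, which gave 39 genes of 60622 gene lines: 11 in HOXA, 10 in HOXB, 9 in HOXC and 9 in HOXD. The series holds 8 poly(A) RNA libraries from cultured human prostate cancer cells, 2 in each of 4 groups: LNCaP control, LNCaP with miR-375 overexpressed, PC3 control and PC3 with miR-375 overexpressed. LNCaP is an androgen-responsive line from a lymph node metastasis and was grown in 10% serum, and PC3 is a line from a bone metastasis and was grown in 20% serum. Line and serum therefore cannot be told apart in a comparison of the lines. The sources used here do not say how miR-375 was raised or how the controls were treated, and the labels name the lines with no clone. Nothing in the labels ties the pair of libraries in a group to separate cultures, so the p-values reflect a spread that may be technical.

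HOX proteins are transcription factors that give cells along the body axis their positional identity. Within each cluster the genes lie in the order of their numbers, low numbers act towards the head and early, high numbers act towards the tail and late, and genes of the same number in different clusters are paralogs. The high numbers pattern the urogenital tract, HOXB13 is the member best known in prostate epithelium, and adult cells tend to keep the HOX pattern of their origin. HOX proteins bind DNA together with PBX, MEIS and PKNOX proteins, the TALE cofactors, and chromatin regulators of the Polycomb and MLL type hold the clusters closed or open.

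miR-375 is a microRNA, a short RNA that pairs with messenger RNAs through its seed. The mature sequence in RefSeq (GRCh38.p14, chr2:219001648-219001669, minus strand) is shown with seed bases 2 to 8 in capitals, since the sites searched in the HOX transcripts further on are matches to it.
hsa-miR-375-3p: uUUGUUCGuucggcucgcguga

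Counts per gene as deposited were scaled to CPM (counts in proportion to the library size) with TMM factors. Library totals were 33973861 to 41890528 counts. In each line comparison the 8 LNCaP markers were all lower and the 8 PC3 markers all higher in PC3. KLK3, which encodes PSA, had 0 counts in every PC3 library and 1797 to 2811 CPM in LNCaP. Changes are log2 fold changes ± SE from edgeR's quasi-likelihood test. SE was worked back as the size of the change divided by the square root of the test's F value. The words "rose", "fell", "higher" or "lower" are used where that test gave a Benjamini-Hochberg adjusted p under 0.05 over 21066 tested genes. In these bulk samples, fewer cells with a transcript and less of it in each cell cannot be told apart. A count of 0 allows up to 3 counts per library, 0.0712 to 0.0907 CPM, for counting error only.

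Of the 39 HOX genes, 32 passed the filter on low counts and were tested, all 11 of HOXA, 9 of HOXB, 8 of HOXC and 4 of HOXD. The other 7 (HOXB1, HOXC11, HOXD1, HOXD9, HOXD10, HOXD11 and HOXD12) had at most 29 counts over all libraries, against at least 47 for those tested. HOXD10 and HOXD11 were at 0 in every library, and HOXB1 had 2 counts in 1 PC3 control library. A mean of 1 CPM or more was reached by 11 of the tested members in LNCaP controls and by 24 in PC3 controls.

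To compare the genes with one another, CPM was divided by the exonic length in kb (GENCODE release 29). HOXB13 was by far the highest HOX gene per length in every library, at 175 and 175 CPM per kb in the LNCaP controls and 159.9 and 161 in the PC3 controls. It made up 83.9% of the summed HOX level per length in both LNCaP controls, and 68.1% and 68.9% of it in the PC3 controls. The genes that followed it were mostly HOXC genes in LNCaP and mostly HOXA genes in PC3. In LNCaP controls they were HOXC13 (10.2 and 10.2 CPM per kb), HOXC6 (5.91 and 5.94), HOXC12 (4.11 and 4.41), HOXC9 (4.25 and 3.60) and HOXA10 (3.11 and 2.96). HOXC12 and HOXC9 overlapped in these libraries on that scale. In PC3 controls they were HOXA13 (14.4 and 14.3 CPM per kb), HOXA11 (12.4 and 13.2), HOXA9 (9.44 and 9.67), HOXC13 (5.48 and 4.79) and HOXA10 (3.89 and 4.06). The highest HOXD member was HOXD4 or HOXD8 in both lines, at most 1.30 CPM per kb in any library.

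**Figure D1:**
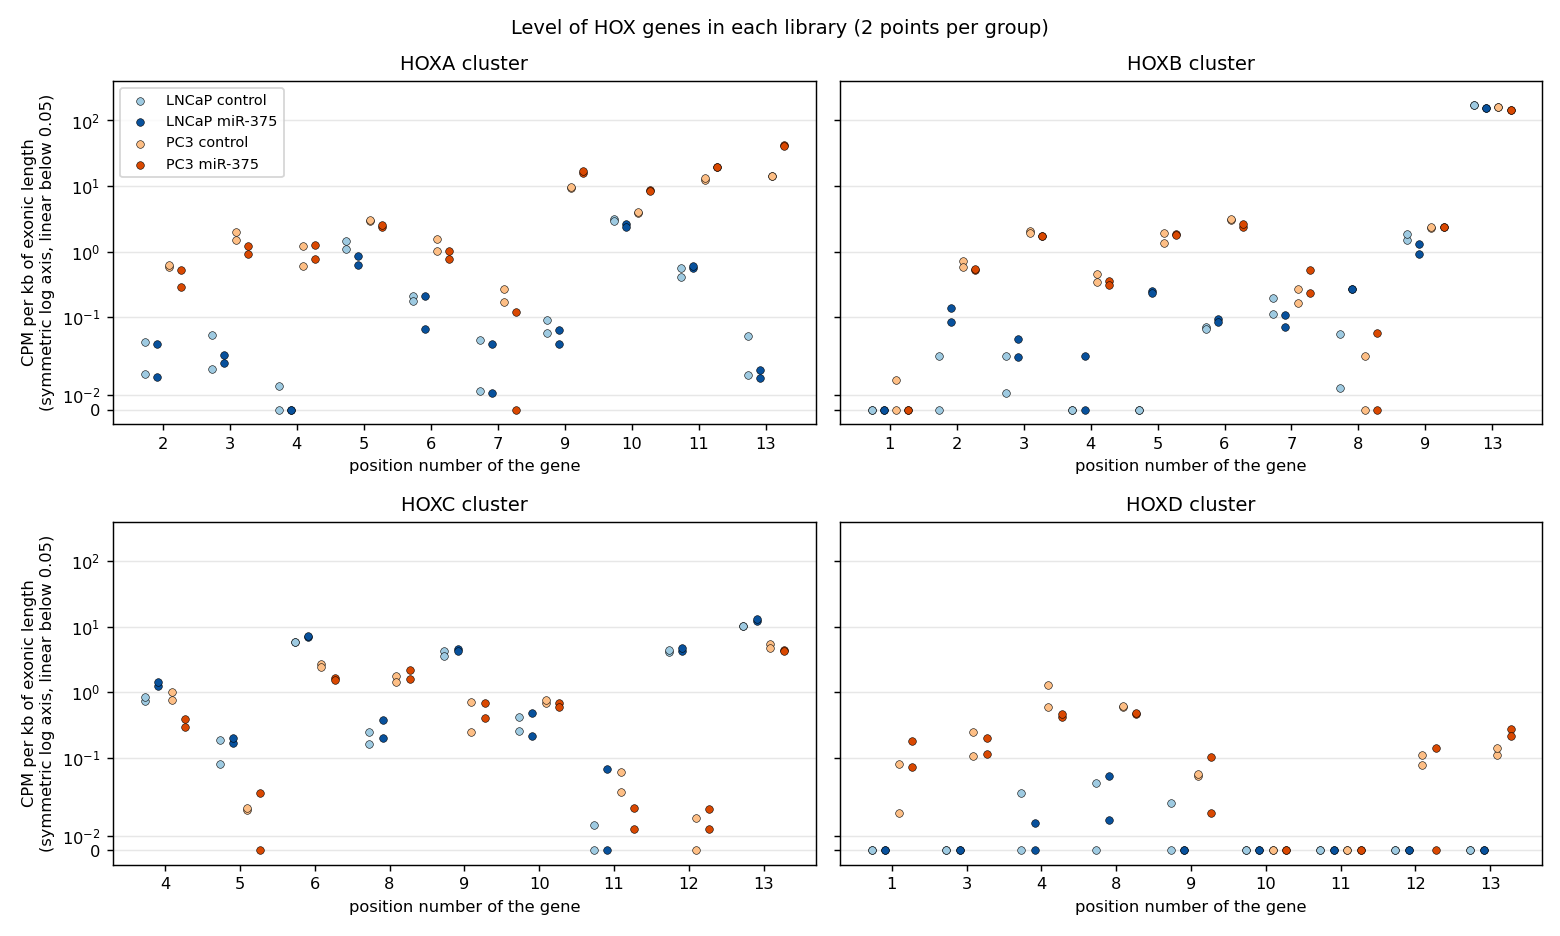
Level of HOX genes (CPM per kb of exonic length, symmetric log axis) against position number, one panel per cluster and one point per library. HOXB13 stands at 145.6 to 175.1 CPM per kb in all 8 libraries, the HOXA genes 9, 11 and 13 are higher in PC3, and HOXC12 is at 4.11 to 4.72 CPM per kb in LNCaP and at most 0.0285 in PC3.

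More of the tested HOX genes were higher than lower in PC3, whereas all tested genes split about evenly. A difference between the lines was in itself common among all tested genes. Among controls, 23 of the 32 tested members were higher in PC3 (edgeR; 39.2% of all tested genes were) and 5 were lower (41.2% of all tested genes). Between the libraries with miR-375, which are separate from the controls, 22 were higher (40.5% of all genes) and 8 lower (40.4%). The direction matched in 31 of 32 members, and 26 were called in both, 21 higher and 5 lower in PC3. Both comparisons set the same lines side by side, and this agreement was not counted over all tested genes. It is therefore not read as particular to HOX genes. By cluster, the controls gave 6 higher and 1 lower in HOXB, 2 and 4 in HOXC, and 4 and 0 in HOXD. Members near 0 in 1 line passed the filter only through the other line, so their calls could hardly go the other way. These include HOXA4, HOXB4 and the 4 tested HOXD genes through PC3, and HOXC12 through LNCaP. The direction of these members was thus largely set by the filter. The median log2 difference of the members was 2.89 among controls, against -0.07 over all tested genes, and 2.81 with members at 0 in 1 line set to their bound.

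The HOXA genes described here were higher in PC3 controls than in LNCaP controls, by very different amounts. HOXA13, which patterns distal limbs and the urogenital sinus, had 0.121 and 0.258 CPM in LNCaP controls and 73.0 and 72.9 CPM in PC3 controls, a log2 difference of 8.55 ± 0.13 (edgeR adjusted p = 5.90e-36). HOXA9, a regulator of blood progenitors, had 0.272 and 0.172 CPM in LNCaP and 28.6 and 29.3 CPM in PC3 (7.01 ± 0.19). HOXA11, needed for the reproductive tract and forelimb, had 0.937 and 1.29 and 28.6 and 30.5 CPM in the same order (4.72 ± 0.15). HOXA10, its neighbour with a role in the uterus, stood apart from these 3 because both lines held it: 11.5 and 11.0 CPM in LNCaP and 14.4 and 15.1 CPM in PC3, a log2 difference of only 0.39 ± 0.11 (edgeR adjusted p = 0.0016).

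The HOXA genes numbered 2 to 7 were lower than HOXA9, HOXA11 and HOXA13 in PC3 per length, and higher in PC3 than in LNCaP among controls. HOXA2, which specifies the second pharyngeal arch, had 0.0604 and 0.115 CPM in LNCaP controls and 1.45 and 1.51 CPM in PC3 controls. HOXA3, needed for thymus and parathyroid, had 0.121 and 0.229 and 6.56 and 8.41 CPM. No LNCaP library reached a PC3 control library in either gene. HOXA4 had 0 and 1 counts in LNCaP controls and 85 and 40 counts in PC3 controls, and between the miR-375 libraries, with 0 counts in LNCaP, it was at least 21.7-fold higher in PC3. HOXA5, which acts in lung development, had 2.48 and 1.83 CPM in LNCaP and 5.02 and 5.14 CPM in PC3. HOXA6 had 0.272 and 0.229 and 1.97 and 1.30 CPM. HOXA7 was low in both lines, with 1 and 4 counts in LNCaP and 26 and 16 in PC3 controls, and its call among controls ended without LNCaP control 1 (edgeR adjusted p = 0.152) or PC3 control 1 (0.113). In the miR-375 libraries HOXA7 did not pass (edgeR adjusted p = 0.428), with 4 and 1 counts in LNCaP and 12 and 0 in PC3.

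In HOXB the large differences between the lines were in HOXB2 to HOXB6. HOXB13 had 607 and 606 CPM in LNCaP controls and 554 and 559 CPM in PC3 controls, so the lines did not overlap, but the log2 difference was only -0.12 ± 0.03 (edgeR adjusted p = 6.40e-04), and the call ended with no filter on low counts (0.0525). Its call between the miR-375 libraries ended without PC3 miR-375 2 (edgeR adjusted p = 0.0549). HOXB3, a hindbrain and neck gene, had 0.272 and 0.0859 CPM in LNCaP and 15.1 and 14.2 CPM in PC3 (6.35 ± 0.27). HOXB6 had 0.181 and 0.172 and 7.86 and 8.25 CPM (5.49 ± 0.32). These middle genes were near the floor in LNCaP and clearly present in PC3. HOXB4, known from blood stem cells, had 0 counts in both LNCaP controls and 68 and 49 in PC3 controls, at least 16.8-fold higher. HOXB5, which acts in the enteric nervous system, likewise had 0 and 0 counts against 155 and 106, at least 37.5-fold higher. HOXB2, a hindbrain gene, had 0 and 3 counts in LNCaP controls and 68 and 53 in PC3 controls, a ratio of CPM of 34.9 (95% counting interval 11.7 to 171.6). HOXB9, a thoracic patterning gene, had 3.93 and 4.81 CPM in LNCaP and 5.82 and 6.02 CPM in PC3, and its call among controls (edgeR adjusted p = 0.0403) ended without LNCaP control 1 (0.203), PC3 control 1 (0.0806) or PC3 control 2 (0.111), with DESeq2 (0.0602) and with total-count scaling (0.0546). HOXB7 and HOXB8 were low in both lines and neither passed among controls. They had 10 and 6 and 1 and 4 counts in LNCaP controls and 10 and 16 and 3 and 0 counts in PC3 controls. HOXB8 passed the filter only through the LNCaP miR-375 libraries, the only group above 5 counts. Its calls on that group are therefore not independent of the filter. Between the miR-375 libraries HOXB7 was higher in PC3 (4 and 6 against 34 and 15 counts) and HOXB8 lower (20 and 20 against 0 and 5), calls that ended without LNCaP miR-375 1, LNCaP miR-375 2 or PC3 miR-375 1. Without these the edgeR adjusted p was 0.122, 0.0523 and 0.232 for HOXB7 and 0.0590, 0.0616 and 0.119 for HOXB8.

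HOXC was the cluster in which LNCaP was higher. HOXC12, a neighbour of HOXC13 at the high-number end, had 454 and 513 counts in LNCaP controls (13.7 and 14.7 CPM) and 3 and 0 counts in PC3 controls, a PC3 to LNCaP ratio of 0.00268 (95% counting interval 0.000553 to 0.00787). HOXC13, known for hair and nail, had 24.7 and 24.7 CPM in LNCaP controls and 13.3 and 11.6 CPM in PC3 controls (-0.99 ± 0.10). HOXC6, a gene often reported as raised in prostate cancer, had 20.9 and 21.0 and 9.54 and 8.44 CPM (-1.22 ± 0.11). HOXC9, which sets thoracic motor neuron identity, had 7.13 and 6.04 and 1.17 and 0.415 CPM (-3.04 ± 0.29). In each of these 4 genes both LNCaP controls lay above both PC3 controls. The reverse held for HOXC8, with 0.302 and 0.458 CPM in LNCaP and 3.37 and 2.67 CPM in PC3 controls, and for HOXC10, a lumbar motor neuron gene, with 0.604 and 0.974 and 1.62 and 1.76 CPM; the HOXC10 call ended without LNCaP control 1 (edgeR adjusted p = 0.138) or PC3 control 2 (0.0514). HOXC4 did not pass among controls, with 2.03 and 2.29 CPM in LNCaP and 2.05 and 2.70 CPM in PC3, libraries that overlapped. HOXC5 had 11 and 5 counts in LNCaP controls and 2 and 2 in PC3 controls and did not pass there. In the miR-375 libraries it was lower in PC3 with 11 and 13 against 3 and 0 counts (ratio of CPM 0.108, 95% counting interval 0.0209 to 0.357). Only the LNCaP miR-375 group had both libraries at 11 counts or more. HOXC5 needed that group to pass the filter, so this call is not independent of the filter. That HOXC5 call ended without either LNCaP miR-375 library (edgeR adjusted p = 0.0599 and 0.0905) or PC3 miR-375 2 (0.157).

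HOXD was nearly silent in LNCaP. HOXD13, which patterns digits and the urogenital sinus, had 0 counts in all 4 LNCaP libraries and 10 and 12 counts in PC3 controls, at least 3.18-fold higher. HOXD3 had 0 counts in LNCaP and 15 and 34 in PC3 controls, at least 7.12-fold higher. HOXD4 had 0 and 2 counts in LNCaP controls and 76 and 34 in PC3 controls, a ratio of CPM of 47.6 (95% counting interval 12.9 to 397.9). HOXD8 had 4 and 0 and 63 and 62 counts. All 4 were higher in PC3 in both line comparisons by edgeR. They had at most 5 counts in any LNCaP library and passed the filter only through PC3, so a call could hardly go the other way. HOXD3 and HOXD4 share 62.2% and 80.5% of their exonic length with the read-through AC009336.2, so their reads may have been split or left out by the counting.

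**Figure D2:**
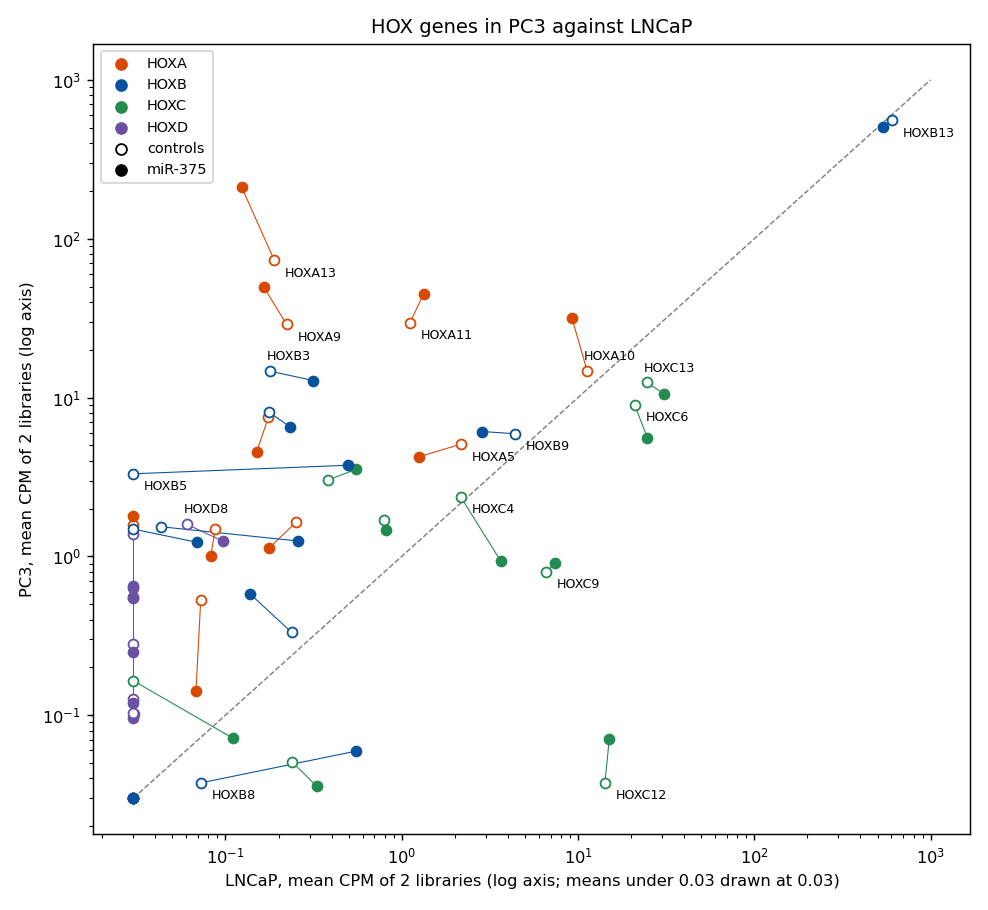
Mean CPM of 2 libraries in PC3 against LNCaP for HOX genes on log axes, controls as open and miR-375 libraries as filled circles joined by a line, coloured by cluster, with means under 0.03 CPM drawn at 0.03. The dashed line marks equal levels: the HOXA genes lie above it, HOXC12, HOXC9, HOXC6 and HOXC13 below it, and HOXB13 close to it.

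In PC3, the 4 HOXA genes with the highest numbers were higher with miR-375 than in controls. The 4 members that rose in PC3 (edgeR; 22.2% of all tested genes rose) were HOXA9, HOXA10, HOXA11 and HOXA13, all the HOXA genes numbered 9 to 13. Another 4 members fell, HOXA3, HOXB13, HOXC4 and HOXC6 (20.8% of all tested genes fell), and 24 did not pass. The counts lie near or below the share over all genes, and the median log2 fold change of the tested members was -0.18, against 0.02 over all tested genes, or -0.20 over the 29 members above the floor in at least 1 arm. None of the HOXA genes 2 to 7 rose. Whether the 4 stand together more than 4 genes drawn by chance would was not tested.

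HOXA13 had 73.0 and 72.9 CPM in PC3 controls and 213 and 211 CPM with miR-375, a log2 fold change of 1.54 ± 0.05 (edgeR adjusted p = 5.43e-24). HOXA10 had 14.4 and 15.1 CPM in controls and 31.8 and 31.3 CPM with miR-375 (1.10 ± 0.10; edgeR adjusted p = 9.93e-12). Both miR-375 libraries lay well above both controls in these genes. HOXA9 had 28.6 and 29.3 CPM in controls and 48.1 and 51.5 CPM with miR-375 (0.78 ± 0.09; edgeR adjusted p = 1.95e-09). HOXA11 had 28.6 and 30.5 and 45.0 and 44.9 CPM (0.61 ± 0.09; edgeR adjusted p = 5.88e-07). In all 4 genes the 2 groups were far apart compared with the gap between libraries of a group, and the call held in all 16 alternative settings. Their part of the summed HOX level per length in PC3 was 17.1% and 17.6% in controls and 32.9% and 33.2% with miR-375, while that of HOXB13 was 68.1% and 68.9%, then 56.1% and 56.0%.

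**Figure D3:**
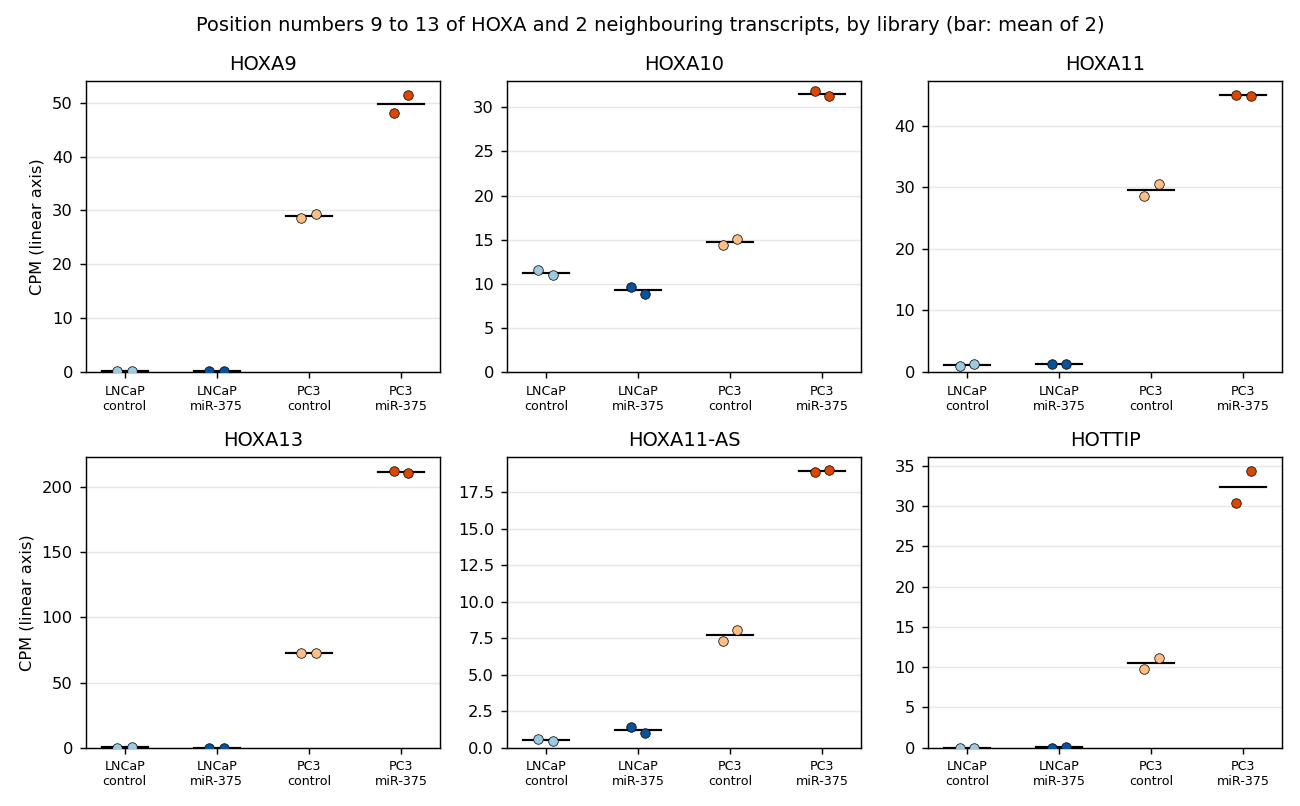
CPM of HOXA9, HOXA10, HOXA11 and HOXA13 and of the neighbouring transcripts HOXA11-AS and HOTTIP, one point per library with a bar at the mean of 2, each panel on its own linear axis from 0. In PC3 the miR-375 points lie above the control points in all 6 panels; in LNCaP HOXA9, HOXA13 and HOTTIP lie near 0.

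By edgeR's calls, the HOXA genes that rose in PC3 lay together at one end of the cluster. HOXA13 (chr7:27193503-27200106), HOXA11 (chr7:27181510-27185223), HOXA10 (chr7:27170591-27180261) and HOXA9 (chr7:27162435-27175180), all on the minus strand of GRCh38, are adjacent at one end. HOXA7 and HOXA6, next in line, gave -1.88 ± 0.95 and -0.53 ± 0.44 and did not pass. HOXA7 had 26 and 16 counts in controls and 12 and 0 with miR-375. HOXA5, HOXA4 and HOXA2 gave -0.26 ± 0.22, 0.17 ± 0.43 and -0.55 ± 0.47, and none passed. HOXA3 fell, from 6.56 and 8.41 CPM to 5.17 and 3.96 CPM (-0.71 ± 0.22; edgeR adjusted p = 0.00785). The HOXA3 libraries did not overlap, but the call ended without PC3 control 2 (edgeR adjusted p = 0.152) or PC3 miR-375 2 (0.125).

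Of the other transcripts in and beside the HOXA cluster, 3 at the HOXA13 end rose in PC3 and 1 at the HOXA3 end fell. HOTTIP, a long noncoding RNA that starts beside HOXA13 on the other strand, had 392 and 431 counts in controls and 1278 and 1450 with miR-375 (1.63 ± 0.13; edgeR adjusted p = 6.43e-13). HOXA11-AS, antisense to HOXA11, had 7.31 and 8.10 CPM in controls and 18.9 and 19.0 CPM with miR-375 (1.30 ± 0.15; edgeR adjusted p = 1.77e-09). EVX1, the homeobox gene beyond HOXA13, rose from 18 and 12 to 79 and 48 counts (1.98 ± 0.56; edgeR adjusted p = 0.0037). HOXA10-AS, inside the stretch that rose, had 48 and 37 and 51 and 38 counts and did not pass. At the other end HOXA-AS2, beside HOXA3, fell from 3.47 and 2.23 to 1.41 and 1.42 CPM (-1.01 ± 0.35; edgeR adjusted p = 0.0177), and HOTAIRM1 (-0.44 ± 0.41) and HOXA-AS3 (-0.83 ± 0.53) did not pass. No strand setting of the counting is stated, so reads of a gene and of its antisense partner cannot be told apart where exons overlap. Such overlap covers 1.69% of the exonic length of HOXA13 (with HOTTIP) and 31.1% of HOXA11 (with HOXA11-AS). It covers 62.3% of HOXA10-AS (with HOXA9, HOXA10 and MIR196B), 62.5% of HOXA7 (with HOXA-AS3) and 15.4% of HOXA3 (with HOXA-AS2 and HOXA-AS3). HOXA9 and HOXA10 overlap other annotated exons over 27.0% and 26.3% of their length, part of it on their own strand with the read-through AC004080.3.

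**Figure D4:**
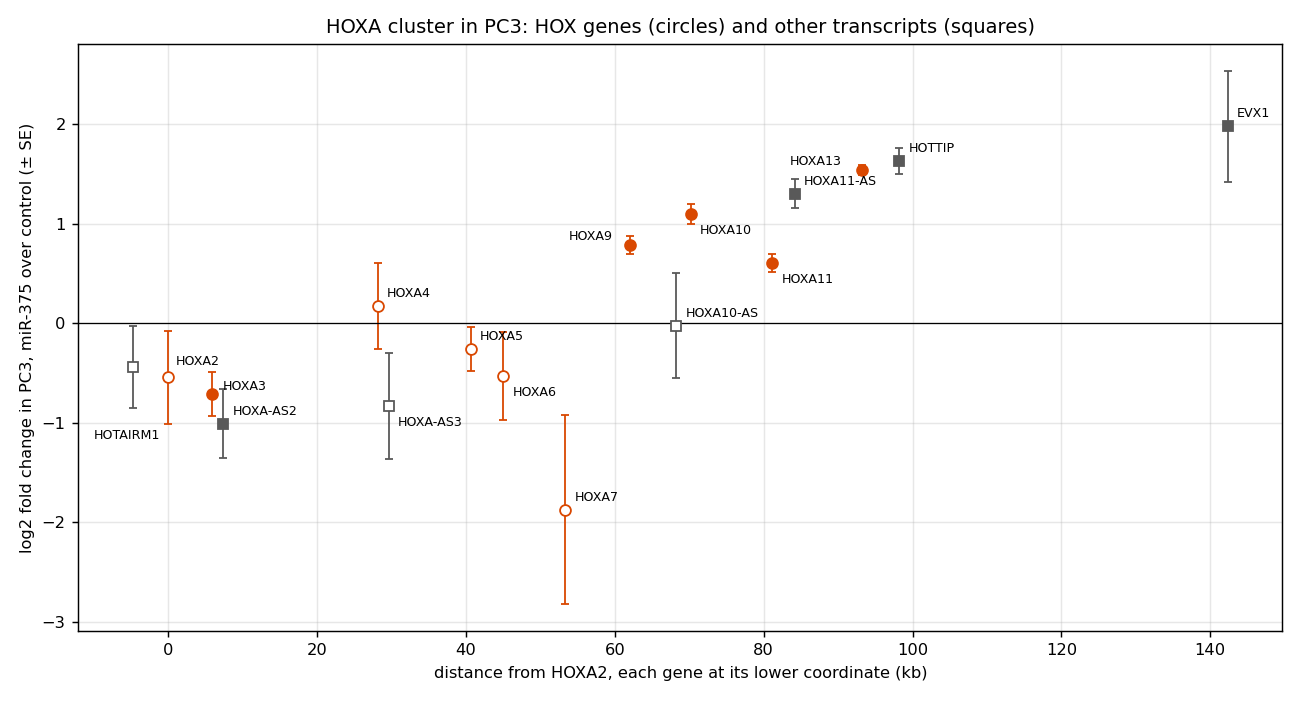
Log2 fold change of miR-375 over control in PC3 (± SE) against distance in kb along the HOXA cluster, measured from HOXA2 with each gene at its lower coordinate, for HOX genes (circles) and other transcripts (squares). Filled symbols passed edgeR's test at an adjusted p under 0.05: HOXA9 to HOXA13, HOXA11-AS, HOTTIP and EVX1 lie above 0, and HOXA3 and HOXA-AS2 below it.

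None of the 6 motifs searched was found in the promoters of all 4 genes that rose in PC3. RefSeq promoter windows (GRCh38.p14) were found for 20 of the 39 members, and the 250 bases before the start are printed for these 4, with matches in capitals. On both strands, the TATA box was searched as TATAAA, which 10.7% of 35116 such windows hold, and the CCAAT box by the letters of its name (32.0% of windows). The GC box was searched as GGGCGG (42.6%) and a CDX-type motif as TTTATNG (8.93%). A PBX-HOX type was searched as TGATTNAT (2.48% of windows) and an AP-1 type as TGANTCA (6.57%).
HOXA13, chr7:27200092-27200341, minus strand: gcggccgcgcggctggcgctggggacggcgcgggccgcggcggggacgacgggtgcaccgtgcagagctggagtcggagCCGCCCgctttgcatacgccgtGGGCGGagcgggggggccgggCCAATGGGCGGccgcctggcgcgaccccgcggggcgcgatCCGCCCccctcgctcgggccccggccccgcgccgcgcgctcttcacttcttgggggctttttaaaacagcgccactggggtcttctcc
HOXA11, chr7:27185233-27185482, minus strand: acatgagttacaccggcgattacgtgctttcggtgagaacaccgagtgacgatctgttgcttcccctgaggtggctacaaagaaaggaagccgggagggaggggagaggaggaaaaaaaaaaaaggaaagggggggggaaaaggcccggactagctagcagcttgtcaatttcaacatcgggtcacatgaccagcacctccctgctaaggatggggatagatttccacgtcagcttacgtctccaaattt
HOXA10, chr7:27179862-27180111, minus strand: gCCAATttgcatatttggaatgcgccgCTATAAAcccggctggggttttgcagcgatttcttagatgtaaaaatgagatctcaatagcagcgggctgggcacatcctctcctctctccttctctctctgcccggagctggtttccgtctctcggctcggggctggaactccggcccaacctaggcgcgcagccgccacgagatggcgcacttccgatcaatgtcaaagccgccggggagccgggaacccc
HOXA9, chr7:27165538-27165787, minus strand: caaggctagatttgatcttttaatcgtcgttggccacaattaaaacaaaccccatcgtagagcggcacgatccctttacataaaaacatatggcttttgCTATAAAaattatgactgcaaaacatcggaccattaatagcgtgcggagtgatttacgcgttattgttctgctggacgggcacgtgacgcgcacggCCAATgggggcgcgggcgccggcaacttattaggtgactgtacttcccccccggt
HOXA10 and HOXA9 each hold CTATAAA, in which TATAAA overlaps a CDX-type match on the other strand, and each holds 1 CCAAT match. HOXA13 holds 4 GC-box matches and 1 CCAAT match, and HOXA11 holds none of the 6 motifs. A second RefSeq window of HOXA10, starting at 27174321 on the same chromosome and not printed, holds 1 TATA-box and 1 CCAAT match and no CDX-type match, with a GC share of 65.2%. The GC share was 78.0% in the HOXA13 window, 51.6% in HOXA11, 58.8% in HOXA10 and 48.8% in HOXA9, against a median of 58.0% over all windows. A match is a run of letters and not a shown binding site.

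Outside HOXA, the PC3 members that fell were HOXC4, HOXC6 and HOXB13. HOXC4 had 2.05 and 2.70 CPM in controls and 0.810 and 1.07 CPM with miR-375 (-1.33 ± 0.31; edgeR adjusted p = 4.65e-04). HOXC6 had 9.54 and 8.44 and 5.79 and 5.39 CPM (-0.69 ± 0.13; edgeR adjusted p = 2.09e-05). In both genes the 2 groups did not overlap and the call held in all 16 alternative settings. HOXC4 and HOXC6 share exons in the annotation, over 17.8% and 15.7% of their exonic length with other genes of the cluster, so their counts are not fully separate. HOXB13 had 554 and 559 CPM in controls and 508 and 505 CPM with miR-375 (-0.14 ± 0.03; edgeR adjusted p = 5.09e-04), a small change that did not pass with total-count scaling (adjusted p = 0.121). The HOXD genes in PC3 did not pass: HOXD13 had 10 and 12 counts in controls and 26 and 20 with miR-375, and HOXD4 76 and 34 and 26 and 29.

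Markers of other cells also moved in PC3. The summed level of 8 fibroblast markers was 172.8 and 185.2 CPM in PC3 controls and 417.6 and 397.6 CPM with miR-375, mostly COL1A1 (136 and 142 and then 384 and 362 CPM), while DCN stood at 0 and then at 0.333 and 0.475 CPM. Of the 7 fibroblast markers tested, 4 rose, 2 did not pass, and PDGFRA fell from 30.6 and 36.9 to 22.4 and 23.9 CPM. Over all tested genes, 22.2% rose and 20.8% fell in PC3. Of the 6 endothelial markers tested, 0 rose, 2 fell and 4 did not pass, and of the 2 leukocyte markers tested 1 rose. The 7 endothelial markers summed to 367.9 and 370.1 CPM and then 205.6 and 206.5 CPM, mostly KDR, and the 7 leukocyte markers to 2.10 to 4.01 CPM in the 4 PC3 libraries. The 8 PC3 markers themselves summed to 3201 and 3210 CPM in controls and 1596 and 1582 CPM with miR-375. The part of these in the HOX changes was not tested.

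In LNCaP, 8 HOX genes differed between the miR-375 and control libraries, most of them in HOXB and HOXC. HOXB2, HOXB5, HOXB8, HOXC4 and HOXC13 rose (5 of 32; 13.9% of all tested genes rose), and HOXA5, HOXB9 and HOXB13 fell (3 of 32; 18.7% of all tested genes fell). None of HOXA and none of HOXD rose. The median log2 fold change of the members was 0.07 (0.00 over all tested genes), or 0.20 over the 26 members above the floor in at least 1 arm. Of these 8 calls, HOXB5 and HOXC13 held in all 16 alternative settings.

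The HOXB genes that rose in LNCaP all started close to 0. HOXB5 had 0 counts in both LNCaP controls and 19 and 17 counts with miR-375 (0.515 and 0.471 CPM), at least 5.58-fold higher (edgeR adjusted p = 8.35e-06). HOXB2 had 0 and 3 counts in controls and 12 and 7 with miR-375, a ratio of CPM of 5.90 (95% counting interval 1.74 to 31.1; edgeR adjusted p = 0.0316). HOXB8 had 1 and 4 counts in controls and 20 and 20 with miR-375 (2.85 ± 1.07; edgeR adjusted p = 0.0373). It passed the filter on low counts only through these miR-375 libraries, so its rise is not independent of that filter. With miR-375 all 3 stayed under 0.6 CPM, and HOXB2 and HOXB5 stayed below their level in PC3, where neither passed (-0.30 ± 0.44 and 0.18 ± 0.28). The HOXB2 call ended without LNCaP control 1 (edgeR adjusted p = 0.256) or LNCaP miR-375 1 (0.182) and with halved counts (0.0848). The HOXB8 call ended without any 1 of the 4 LNCaP libraries (edgeR adjusted p = 0.114 to 0.310), with no filter on low counts (0.0546) and with a replicate block (0.0551). HOXB3 and HOXB4, which lie between HOXB2 and HOXB5, had 9 and 3 and 0 and 0 counts in controls and 10 and 13 and 0 and 5 with miR-375, and did not pass.

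The HOXC genes that rose in LNCaP were well above the floor. HOXC13 had 24.7 and 24.7 CPM in controls and 29.9 and 31.3 CPM with miR-375 (0.31 ± 0.09; edgeR adjusted p = 0.00955). HOXC4 had 2.03 and 2.29 and 3.39 and 3.88 CPM (0.75 ± 0.28; edgeR adjusted p = 0.0366). The groups did not overlap in either gene, but the HOXC4 call ended without any 1 of the 4 LNCaP libraries (edgeR adjusted p = 0.0599 to 0.175). HOXC6 had 20.9 and 21.0 CPM in controls and 24.3 and 25.1 CPM with miR-375 (0.24 ± 0.10) and did not pass (edgeR adjusted p = 0.0828).

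The LNCaP members that fell were HOXB13, HOXB9 and HOXA5. HOXB13 had 607 and 606 CPM in controls and 536 and 533 CPM with miR-375 (-0.18 ± 0.03; edgeR adjusted p = 1.33e-05), without overlap, and 155 and 154 CPM per kb with miR-375 left it the highest HOX gene. HOXB9 had 3.93 and 4.81 and 2.39 and 3.32 CPM (-0.62 ± 0.21; edgeR adjusted p = 0.0211). HOXA5 had 2.48 and 1.83 and 1.06 and 1.44 CPM (-0.78 ± 0.28; edgeR adjusted p = 0.0273). None of the 3 passed with total-count scaling, which moved the median of all genes by 0.12 on the log2 scale (edgeR adjusted p = 0.136, 0.0677 and 0.0640). HOXB9 was also lost with DESeq2 (adjusted p = 0.0552) and, by edgeR, without LNCaP control 2 (adjusted p = 0.292) or LNCaP miR-375 1 (0.368). HOXA5 was lost with DESeq2 (adjusted p = 0.0532) and limma-voom (0.0711), and by edgeR with halved counts (0.0547), with no filter on low counts (0.0631) and without LNCaP control 1 (0.342) or LNCaP miR-375 1 (0.302).

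**Figure D5:**
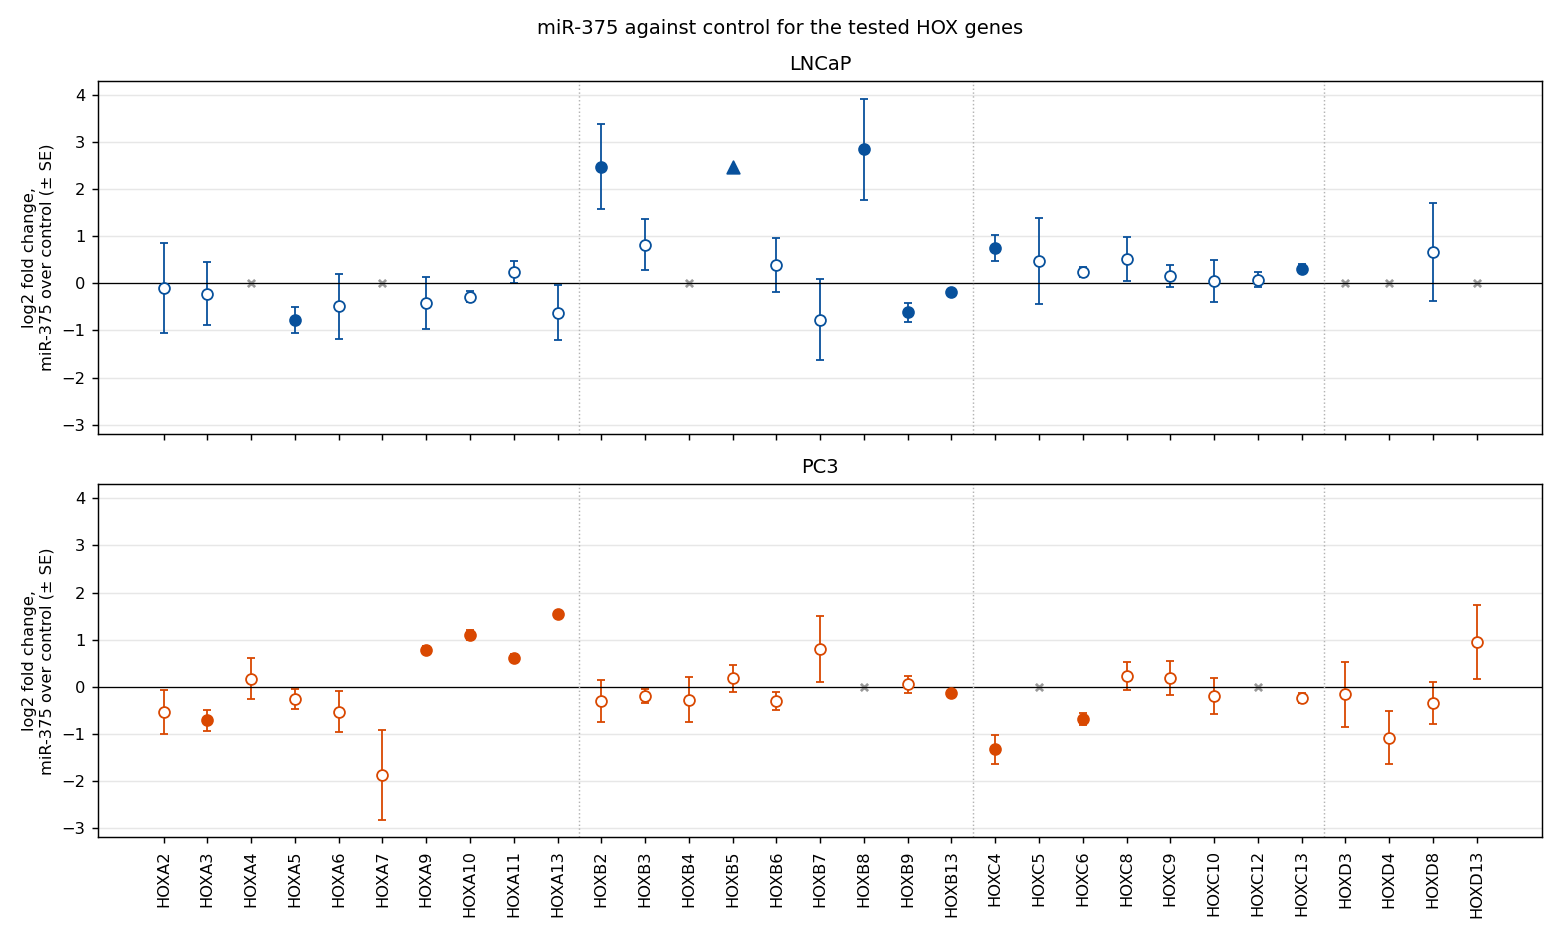
Log2 fold change of miR-375 over control (± SE) for the tested HOX genes described in the text, in LNCaP (top) and PC3 (bottom), ordered by cluster and position number; filled symbols passed edgeR's test at an adjusted p under 0.05. The triangle is the lower bound for HOXB5, with 0 counts in LNCaP controls, and grey crosses mark genes at or under 3 counts per library in both arms, for which no fold change is given.

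The difference between the lines in the miR-375 effect was tested as an interaction, LNCaP effect minus PC3 effect. It was higher for 5 members, HOXB2, HOXB5, HOXC4, HOXC6 and HOXC13 (10.9% of all tested genes), and lower for 2, HOXA10 and HOXA13 (15.6% of all tested genes). HOXA10 was present in both lines, with 11.5 and 11.0 CPM in LNCaP controls and 9.62 and 8.86 CPM with miR-375, so that its effects of -0.28 ± 0.11 and 1.10 ± 0.10 could be set side by side, with a difference of -1.38 ± 0.15 (edgeR adjusted p = 3.55e-09). HOXC4 moved in opposite directions, higher in LNCaP and lower in PC3, with a difference of 2.08 ± 0.42 (edgeR adjusted p = 1.60e-04). For HOXC6 and HOXC13 the differences were 0.92 ± 0.16 and 0.55 ± 0.14 (edgeR adjusted p = 3.00e-05 and 0.00303). HOXA9 and HOXA11, which rose in PC3, did not pass the interaction (edgeR adjusted p = 0.124 and 0.345). HOXA9 had 5 to 9 counts and HOXA11 31 to 50 in the 4 LNCaP libraries, so a change there was hard to measure. HOXA13 also differed (-2.16 ± 0.59; edgeR adjusted p = 0.00525), but with 4 and 9 counts in LNCaP controls and 4 and 5 with miR-375, and not without LNCaP control 2 (adjusted p = 0.314), with limma-voom (0.0621) or with halved counts (0.0540). HOXB2 rested on few LNCaP counts as well, and its call (edgeR adjusted p = 0.0379) ended without LNCaP control 1 (0.210), LNCaP miR-375 1 (0.157), PC3 control 1 (0.0761) or either PC3 miR-375 library (0.0666 and 0.0588), with halved counts (0.0721) and with a replicate block (0.0533). HOXB13 fell in both lines, and its difference of -0.05 ± 0.04 did not pass (edgeR adjusted p = 0.509).

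Noncoding and neighbouring genes in the clusters were followed from a list of 30, of which 29 were in the table and 19 were tested. In LNCaP 2 rose and 0 fell (13.9% and 18.7% of all tested genes did), and in PC3 5 rose and 1 fell (22.2% and 20.8%). HOXA11-AS rose in both lines, in LNCaP from 20 and 16 to 53 and 37 counts (1.21 ± 0.31; edgeR adjusted p = 0.00228), where HOXA11 itself did not pass (0.25 ± 0.24). PRAC1, a small gene between HOXB13 and HOXB9 that is known from prostate and rectum, rose in LNCaP from 66.3 and 67.0 to 103 and 108 CPM (0.66 ± 0.06; edgeR adjusted p = 1.05e-11) and in PC3 from 24.5 and 22.6 to 29.7 and 27.4 CPM (0.27 ± 0.07; edgeR adjusted p = 0.00105). Its neighbour HOXB13 fell in both. HAGLR, a noncoding gene in HOXD, rose in PC3 from 4.97 and 4.93 to 7.41 and 7.14 CPM (0.56 ± 0.21; edgeR adjusted p = 0.0339). HOTAIR, the noncoding gene in HOXC known for its link to Polycomb, had 22 and 32 and then 28 and 28 counts in PC3 and did not pass.

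Among the 9 TALE cofactors, 3 rose and 1 fell in LNCaP (13.9% and 18.7% of all tested genes did), and 3 rose and 2 fell in PC3 (22.2% and 20.8%). MEIS3 rose in both, from 0.786 and 0.573 to 2.60 and 2.46 CPM in LNCaP (1.90 ± 0.32) and from 0.549 and 0.701 to 5.38 and 5.01 CPM in PC3 (3.05 ± 0.31). PBX2 rose in both (0.49 ± 0.06 in LNCaP and 0.22 ± 0.05 in PC3). PKNOX1 fell in both (-0.37 ± 0.09 and -0.27 ± 0.09), and PBX3 fell in PC3 (-0.56 ± 0.13).

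Of 28 chromatin regulators of the HOX clusters, 4 rose and 11 fell in LNCaP (13.9% and 18.7% of all tested genes did), and 10 rose and 11 fell in PC3 (22.2% and 20.8%). PSIP1, whose product LEDGF tethers MLL complexes to chromatin, fell in LNCaP from 97.8 and 104 to 39.2 and 37.4 CPM (-1.40 ± 0.06) and in PC3 from 112 and 113 to 45.3 and 45.4 CPM (-1.31 ± 0.05). The Polycomb subunits EZH2, which methylates histone H3, and SUZ12 fell in both lines, EZH2 by 0.71 ± 0.08 and 0.45 ± 0.08 on the log2 scale and SUZ12 by 0.70 ± 0.06 and 0.61 ± 0.06. KDM6B, which removes that mark, rose by 0.41 ± 0.05 in LNCaP and 1.17 ± 0.06 in PC3. KMT2C and KMT2D, MLL-type methyltransferases, rose in PC3 (0.86 ± 0.05 and 0.70 ± 0.06), and KMT2D fell in LNCaP (-0.22 ± 0.08). Of 20 genes of the retinoid and CDX inputs, 14 were tested: 4 rose and 0 fell in LNCaP (13.9% and 18.7% of all tested genes did), and 8 rose and 3 fell in PC3 (22.2% and 20.8%). ALDH1A1, a retinoic acid synthesis enzyme, rose in both (2.89 ± 0.41 and 2.33 ± 0.61), in PC3 from only 6 and 2 to 14 and 30 counts. ALDH1A3 fell in PC3 from a far higher level, 279 and 271 to 163 and 161 CPM (-0.77 ± 0.05). These are changes in RNA level in the same libraries, and their part in the HOX changes was not tested.

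Sites for miR-375 were searched in the 3' UTRs of GENCODE release 29 transcripts, as GAACAA followed by A (7mer-A1), CGAACAA (7mer-m8) or both (8mer). At least 1 site was present in 10 of 39 HOX genes (25.6%) and in 8 of the 32 tested (25.0%), against 18.5% of 14899 tested genes with an annotated 3' UTR. No HOX gene had an 8mer. Sites of members called in either line are shown with flanks, the match in capitals, since these are the genes in which a site and a change can be set side by side.
HOXA3 3' UTR site: cagggtatatGAACAAAttttctagtc
HOXA5 3' UTR site, first: atgtttttgtGAACAAAgttacaaata
HOXA5 3' UTR site, second: atactgactgGAACAAAaaataaactt
HOXA10 3' UTR site: aaatcgccttGAACAAAaagttttttt
HOXB9 3' UTR site: aaaagaaaaaGAACAAAaaatatatat
HOXC4 3' UTR site: attttaaggaGAACAAAgctatgaagt
Among the 8 tested members with a site, 1 rose and 2 fell in LNCaP, and 1 rose and 2 fell in PC3. Among the 24 without one, 4 rose and 1 fell in LNCaP, and 3 rose and 2 fell in PC3. Of the 21066 genes in the fit, 13.9% were called higher in LNCaP and 22.2% in PC3. Those called lower made up 18.7% and 20.8%, in the same order. The split by site was not tested against these shares, and calls were not counted over other genes with a site. No difference between members with and without a site is therefore read from these small counts. HOXA10 has a site and rose in PC3, HOXC4 has one and rose in LNCaP and fell in PC3, and HOXA13, HOXA11 and HOXA9 have none. A match in these letters is a description and does not show pairing.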

How the data were processed

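Poly(A) RNA of LNCaP and PC3 cells was made into dUTP-marked libraries and sequenced as pairs of 150-base reads, per the labels' protocols. The authors deposited whole-number counts per gene, not normalized, in 1 table. Per the submitters' processing notes, fastp, STAR 2.7.1a, featureCounts, DESeq2 and hg38 were used; the sources used here do not give the annotation, the strand setting, or whether a count is a read or a pair. From 68.1% to 70.3% of counts between 1 and 20 were even, so halved counts were an alternative. Lines broken in the table (3, with 279 counts) were left out.

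Genes passing edgeR's filterByExpr (21066) were fitted together over the 4 groups, leaving 4 residual degrees of freedom (edgeR 4.0.16, TMM, robust glmQLFit and glmQLFTest, R 4.3.3) and adjusted by Benjamini-Hochberg over all of them. The test moderates each gene's spread with that of all genes. Its p-values therefore rest on more than these 4 degrees of freedom and not on the gene's own libraries alone. The alternatives were DESeq2 1.42.0, limma-voom (limma 3.58.1), total-count scaling, 2 other filters, halved counts, a replicate block, only the groups compared, and each library left out. Replicates differed by more than sampling noise (chi-square per degree of freedom 3.75 to 3.86), so none was merged in the fits. The counting intervals, by contrast, use the summed counts of each group and counting error only. They leave out this spread between replicates and may therefore be too narrow. The intervals and the floor of 3 counts also treat each count as a separate event. If both reads of a pair were counted, the intervals would be wider and the floor higher. Members and lists were chosen with earlier results of these data known. Every tested member called in a comparison was given with its libraries, except 1; that member and 1 gene of the lists are not reported here. Other genes come from the lists. Positions, exonic lengths and 3' UTRs are from GENCODE release 29, and the microRNA and promoters from RefSeq.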

Additional observations from a re-analysis of the deposited data

Results flagged for a closer look

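The miR-375 effect differed between the lines by the interaction test (LNCaP effect minus PC3 effect, log2 scale; edgeR, Benjamini-Hochberg adjusted) in 7 HOX genes. HOXA10 gave -1.38 (adjusted p = 3.55e-09): it rose in PC3 and did not pass in LNCaP, with 320 to 383 counts in every LNCaP library. HOXA13 gave -2.16 (adjusted p = 0.00525), on 4 to 9 counts in the LNCaP libraries. HOXC4 gave 2.08 (adjusted p = 1.60e-04), higher in LNCaP and lower in PC3. HOXC6 gave 0.92 (adjusted p = 3.00e-05), lower in PC3 and not past the threshold in LNCaP. HOXC13 gave 0.55 (adjusted p = 0.00303), higher in LNCaP and not past the threshold in PC3. HOXB2 gave 2.78 (adjusted p = 0.0379), on 0 and 3 counts in LNCaP controls. HOXB5 gave a fitted 7.06 (adjusted p = 7.05e-05), a value that depends on the prior count because both LNCaP controls were at 0. No cause was tested for any of these.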

How the results depend on the processing

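No HOX result changed direction in the 16 alternatives. Calls held in every alternative that gave a value for 2 of 8 members in LNCaP, 6 of 8 in PC3, 5 of 7 in the interaction, 24 of 28 in the line comparison of controls and 26 of 30 in that of the miR-375 libraries. Members lower in LNCaP numbered 3 in the main fit, 1 with DESeq2 and 0 with total-count scaling, which shifts all genes by 0.12 on the log2 scale. Members lower in the interaction numbered 2, and 1 with limma-voom or with halved counts, where HOXA13 was lost (adjusted p = 0.0621 and 0.0540); the cause was not tested. Leaving out 1 library at a time gave 2 to 5 members higher and 1 to 3 lower in LNCaP, 4 to 4 and 3 to 5 in PC3, and 4 to 5 and 1 to 2 in the interaction. It gave 20 to 23 higher and 5 to 5 lower in PC3 among controls, and 21 to 23 and 6 to 8 with miR-375; a group left with 1 library is assumed to vary like the others. Same-numbered libraries did not deviate together (correlations -0.0071 to 0.018), and in the fit with a replicate block HOXB8 in LNCaP (adjusted p = 0.0551) and HOXB2 in the interaction (0.0533) were lost. Counts under about 20 per library limit what could be seen in HOXD and in the low HOXB genes of LNCaP.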
